A study of Homo sapiens with 2 samples.

Results

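The regions described here are the widest stretches of H3K27ac in LOUCY, a human T-cell acute lymphoblastic leukaemia (T-ALL) line. They were chosen by their width and are the peaks of at least 20000 bp on the 22 autosomes in the authors' peak list (hg19), and 500 of 52203 peaks met that rule, or 0.986% of the 50693 autosomal peaks. The series holds 1 H3K27ac ChIP library and 1 input DNA library, both from untreated LOUCY cells in standard medium. The authors called the peaks from the ChIP library against the input, so every value below comes from 1 pair of libraries, without replicates and without a test. The caller kept 54357332 of 62626946 ChIP tags and 71932640 of 74212738 input tags.

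H3K27ac is an acetyl mark on histone H3 that marks active promoters and enhancers. Its widest domains often form where many enhancer elements lie side by side, and such domains are known to gather at genes that define a cell's identity and at genes read strongly in many cells. LOUCY is widely used as a model of early T-cell precursor leukaemia, a form of T-ALL that keeps features of stem and myeloid progenitor cells.

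The choice of regions used width, so the widths are a description, and fold enrichment comes from the same peak calls and is a description too. The median width was 25277.5 bp, the quartiles were 22005.5 and 31458 bp, and the widest region had 98820 bp. Between 20000 and 25000 bp lay 238 regions, and 18 were 50000 bp or wider. Together they held 14.2 Mb, or 9.83% of all autosomal sequence under peaks. At the lower edge, the 5 narrowest regions had 20006, 20031, 20050, 20079 and 20090 bp, with folds of 7.52, 8.36, 9.96, 11.5 and 10.3. The 5 widest autosomal peaks outside the rule had 19996, 19963, 19929, 19901 and 19899 bp, with folds of 10.7, 11.2, 8.66, 10.96 and 4.99. The first of these excluded peaks lay at CD28, the T-cell costimulatory receptor.

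Several of the sequences inside these regions are regulatory RNAs. The region of highest fold lay at MIR142, a microRNA gene of blood cells, and the widest and the third widest lay over the HOXB and HOXA clusters, which hold microRNA genes of their own. The mature sequences are shown to make clear which products these regions cover. They are RefSeq sequences (GRCh38.p14 table), 5′ to 3′, and capitals mark the seed, bases 2 to 8, with which a microRNA pairs to its targets.
miR-142-3p: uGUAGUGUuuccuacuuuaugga
miR-142-5p: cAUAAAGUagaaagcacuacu
miR-10a-5p (HOXB): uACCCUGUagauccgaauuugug
miR-196a-5p (HOXB): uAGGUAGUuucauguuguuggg
miR-196b-5p (HOXA): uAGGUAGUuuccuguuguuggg
The miR-196 products of the HOXB and HOXA regions shared the seed AGGUAGU. The other 3 sequences each had a seed of their own.

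Wide regions also lay across the starts of protein-coding genes. Among the listed genes whose promoters were read, 7 met a further condition: the 10-kb bin of the gene's start lay wholly inside a wide region. The 250 bases upstream of the start are shown for 4 of them, to set CpG-rich against CpG-poor promoters. They come from the RefSeq promoter table (GRCh38.p14), run 5′ to 3′ on the strand of the gene (plus for MYB and PTPRC, minus for CDK6 and LCP2), and capitals mark CG dinucleotides.
MYB: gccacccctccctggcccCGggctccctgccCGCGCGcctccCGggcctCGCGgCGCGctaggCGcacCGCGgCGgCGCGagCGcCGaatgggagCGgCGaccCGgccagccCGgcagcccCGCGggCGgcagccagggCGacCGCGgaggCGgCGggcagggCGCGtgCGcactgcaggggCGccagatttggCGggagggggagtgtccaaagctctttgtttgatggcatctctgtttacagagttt
CDK6: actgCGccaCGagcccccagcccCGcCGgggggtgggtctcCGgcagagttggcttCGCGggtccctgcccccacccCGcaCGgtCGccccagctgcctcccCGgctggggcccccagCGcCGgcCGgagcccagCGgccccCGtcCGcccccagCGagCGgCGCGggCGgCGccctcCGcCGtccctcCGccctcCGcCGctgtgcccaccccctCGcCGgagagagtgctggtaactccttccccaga
LCP2: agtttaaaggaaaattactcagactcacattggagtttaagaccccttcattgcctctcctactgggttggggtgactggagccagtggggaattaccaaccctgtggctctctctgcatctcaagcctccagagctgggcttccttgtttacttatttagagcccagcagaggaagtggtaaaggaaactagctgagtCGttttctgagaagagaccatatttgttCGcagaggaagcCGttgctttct
PTPRC: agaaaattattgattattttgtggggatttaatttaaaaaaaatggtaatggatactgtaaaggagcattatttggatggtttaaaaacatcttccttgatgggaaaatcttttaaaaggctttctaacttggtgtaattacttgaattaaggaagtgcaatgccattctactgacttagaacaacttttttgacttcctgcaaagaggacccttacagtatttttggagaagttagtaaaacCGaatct
The MYB window held 34 CG dinucleotides and the CDK6 window 30, as did that of BTG2. The windows of PRKCQ, IKZF2, LCP2 and PTPRC held 8, 4, 3 and 1. The median over 27305 promoter windows of this length was 11, so wide regions covered starts on both sides of it. On either strand, the RUNX core TGTGGT was in 1 of the 7 windows (IKZF2), against 10.9% of all promoter windows. The E-box CAGCTG was in 1 (CDK6), against 13.8%. The ETS core CCGGAA (14.8% of all windows) and the GATA letters AGATAA (9.37%) were in 0 of 7. For CDK6 and IKZF2 the table lists 2 starts, and the first was used.

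Wide regions had higher folds than narrower peaks in these calls. The authors' fold enrichment is the ratio of ChIP signal to the local input level. Its median was 8.88 (quartiles 7.35 and 10.8, range 3.91 to 24.2). It was 7.59 in the 1719 autosomal peaks of 10000 to 20000 bp, 6.61 in the 4925 of 5000 to 10000 bp and 2.81 in the 43549 narrower ones. A fold of at least 10 was found in 169 regions, or 33.8%, against 5.18% of all autosomal peaks and 21.99% of the peaks of 10000 to 20000 bp. Among the regions themselves, width and fold were nearly unrelated (Spearman's rank correlation 0.06 across 500 regions of 1 library). The rule narrows the range of widths, with 238 of the 500 between 20000 and 25000 bp, so this value holds only within the rule. Only 2 regions were among both the 20 widest and the 20 of highest fold, and 14 of the 100 autosomal peaks of highest fold were this wide, beside 0.986% of all autosomal peaks.

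**Figure D1:**
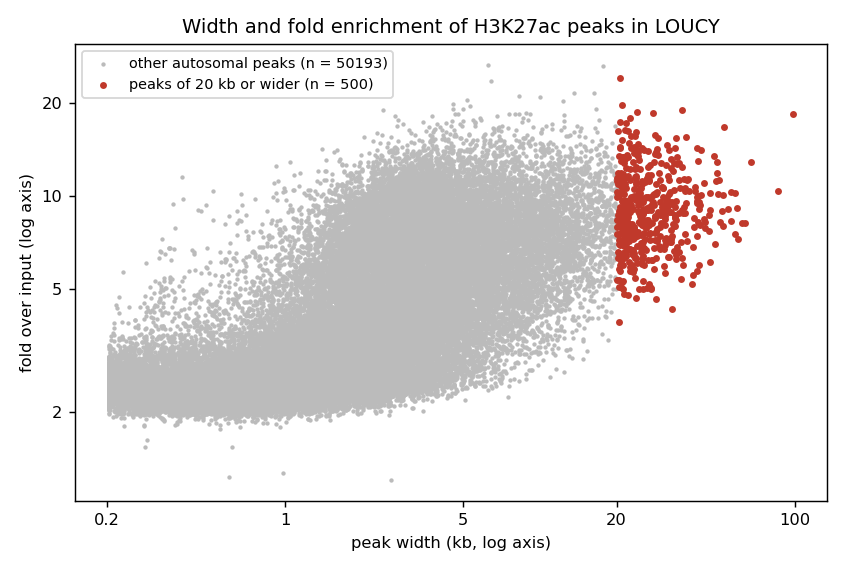
Width (kb, log axis) against fold over input (log axis) for each autosomal peak, with the 500 peaks of 20 kb or wider in red and the 50193 others in grey. The red points span folds of 3.91 to 24.2, with no trend along the width axis within their own range of widths.

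The region of highest fold was chr17:56404851-56425431 at MIR142, with 20581 bp and a fold of 24.2. It was followed by chr6:135498985-135519949 at MYB, a transcription factor of blood progenitors, with a fold of 19.7. The third was chr14:22925355-22961580 in the T-cell receptor alpha and delta locus (19.0). A region at CLEC2B, a C-type lectin gene, had a fold of 18.8 and one at CELF2, an RNA-binding protein gene, 18.6. HOXB came next (18.4), then a second T-cell receptor alpha region (17.9), an unnamed region in 8q13.1 (17.3), one at ARHGDIB (17.3), and one in 22q13.31 (16.7). The 5 lowest folds were 3.91 in 10q22.2, 4.30 in 8q23.1, 4.65 in 15q24.2, 4.66 in 1p13.3 and 4.78 in 4p14, and none of these regions lay at a listed gene.

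The widest region was chr17:46632431-46731250 over HOXB, homeobox genes active in blood stem and progenitor cells, with 98820 bp. At UBASH3B, a phosphatase gene of receptor signalling, chr11:122550675-122636642 had 85968 bp and a fold of 10.4. HOXA, the homeobox cluster often active in immature T-ALL, held chr7:27174299-27241865 with 67567 bp and a fold of 12.9. A region of 64141 bp in 3q27.3 lay between BCL6 and LPP. MVB12B held one of 62377 bp. RUNX1, a master regulator of blood stem cells, held regions of 59760 and 58227 bp with folds of 7.23 and 7.56. BTG2, an antiproliferative gene, lay wholly inside a region of 59516 bp with a fold of 9.17. The other widest regions at genes included those at TESC (58464 bp), the semaphorin gene SEMA4D (56357 bp) and the kinase gene GRK3 (56117 bp). The region at SEMA4D covered only 10.2% of the rounded span of 150 kb and lay largely beside it. Further ones were at the ubiquitin ligase gene ZNRF1 (54680 bp), the T-cell checkpoint gene VSIR (52219 bp) and PRUNE2 (52138 bp). The retinoic acid receptor gene RARA (51851 bp) and the sulfotransferase gene CHST11 (49847 bp) complete those at genes. The 4 remaining of the 20 widest lay in 22q13.31 (52708 bp), between HBS1L and MYB in 6q23.3 (50874 bp), in 1p13.3 (50462 bp) and in 7q34 (49596 bp).

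In all, 60 wide regions, or 12%, lay at the loci of 4 lists, against 2.7% of all autosomal peaks. The lists were chosen with earlier results of these data known, so the shares for each list below are a description. T-lineage loci held 28 wide regions, at 19 of the 68 loci listed. A region counted as at a locus when it touched the gene's span, rounded to 10 kb, or the 20 kb on either side. The 28 were 5.6% of the regions, against 1.3% of all autosomal peaks and 3.14% of the peaks of 10000 to 20000 bp. Placing intervals of the same widths uniformly within their chromosomes gives 2.38 by calculation. A wide interval touches a window more readily than a narrow one, which the calculated number takes into account and the share of all peaks does not.

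Among signalling genes, UBASH3B had 4 regions of 22903, 85968, 20746 and 20792 bp. The last lay beside its span, and the others covered 74.2% of it. At its relative UBASH3A, a T-cell negative regulator, 1 region of 37400 bp with a fold of 9.46 covered 13.8% of the rounded span. LCP2, the adaptor SLP-76 of T-cell receptor signalling, held 1 of 40797 bp (fold 10.7). SLA, an adaptor that lowers receptor signalling, held 1 of 48486 bp (13.5). PRKCQ, the protein kinase C of the T-cell synapse, held 1 of 31355 bp (7.30), and the cytokine receptor kinase JAK1 1 of 26697 bp (6.20). The survival gene BCL2 had a pair of 34324 and 35770 bp with folds of 9.63 and 5.39, the first of them beside its span.

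Of surface molecules, CD69, an early activation antigen, had 3 regions of 20006, 27127 and 42512 bp. The second covered 89.3% of its span, and the others lay on either side of the span. CD7, an early T-lineage antigen, had a region of 20434 bp beside its span with a fold of 13.4. The region near the chemokine receptor gene CCR7 had 24951 bp (6.56). At the T-cell receptor loci, the alpha and delta locus held 2 regions of 36226 and 22506 bp. The beta locus held 2 of 28151 and 21030 bp with folds of 9.38 and 7.85, although its highest fold, 26.4, was in a narrower peak.

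Of transcription factors, IKZF2, an Ikaros family member, had regions of 41392 and 26738 bp with folds of 9.48 and 11.2, the first of them beside its span. ETS1 held 21253 bp (7.67), its neighbour FLI1 29712 bp (7.41), TOX2 22220 bp (7.69), FOXP1 21619 bp (8.75) and ARID5B 41305 bp (5.72). The remaining 49 T-lineage loci had none. Their widest peaks included 13634 bp at GATA3 (fold 16.1), 11138 bp at the CD3 genes (17.1), 9022 bp at BCL11B (8.46), 8882 bp at CD4 (7.77), 4732 bp at TCF7 (3.42) and 1099 bp at CD8A (2.89). Several defining T-cell genes were thus marked in peaks outside the rule. The peak at CD8A was below the medians of all autosomal peaks, 1666 bp and a fold of 3.07, and that at TCF7 was above both. At DTX1 and THEMIS no peak was listed.

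Stem and progenitor loci held 17 wide regions, at 14 of 39 loci. They were 3.4% of the regions, against 0.639% of all autosomal peaks and 0.989% of peaks of 10000 to 20000 bp, with 1.61 by uniform placement. Their median fold was 10.1, and that of the T-lineage regions 8.21. Besides HOXB, HOXA and RUNX1, CDK6, a cell cycle kinase of blood progenitors, held 3 regions of 43031, 22245 and 20727 bp with folds of 10.1, 8.76 and 14.3. ERG, an ETS factor of stem cells, held 1 of 41821 bp (13.0). MYCN had 27908 bp beside its span (10.1), PBX3, a HOX cofactor, 27261 bp (5.05), and ETV6, an ETS repressor, 26983 bp (12.6). At SPI1, the myeloid factor PU.1, a region of 24751 bp (10.3) covered only 7.0% of the rounded span. MEF2C, a factor often active in immature T-ALL, had 24000 bp (14.1). The regions at MYB, MN1 and RUNX2 had 20965, 20414 and 20094 bp, that at MN1 lying beside the span. CD34, the stem cell antigen, had its widest peak just outside the rule with 18967 bp (12.05), and LYL1, a bHLH oncogene of immature T-ALL, had one of 16264 bp with a fold of 21.6. No peak was listed at MEIS1 or MYC.

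General loci held 12 wide regions, at 9 of 23 loci. They were 2.4% of the regions, against 0.286% of all autosomal peaks and 0.931% of peaks of 10000 to 20000 bp, with 0.691 by uniform placement. The histone gene cluster of 6p22.2 held 3 (41318, 35140 and 42096 bp) and PTPRC, the pan-leukocyte antigen CD45, 2 (48684 and 24008 bp). The cell cycle gene CCND3 held 30160 bp (fold 8.67) and ZFP36L1, an mRNA decay factor, 24194 bp (13.9). A region of 26557 bp (8.99) covered only 11.1% of the rounded span of the interferon factor IRF1. TNFAIP3, an inhibitor of NF-kappaB, held 20873 bp (10.9). At the kinase gene PIM1 a region of 20420 bp (5.35) covered 37.8% of the rounded span. BTG2 and MIR142 complete the list.

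Loci of other lineages held 3 wide regions, all in the immunoglobulin heavy chain locus IGH. That is 0.6% of the regions, against 0.479% of all autosomal peaks and 0.698% of the peaks of 10000 to 20000 bp, with 1.87 by uniform placement. The 3 had 28477, 25234 and 25330 bp with folds of 13.9, 6.03 and 9.54. The other 13 loci had none, the B-cell factors PAX5 and EBF1 with widest peaks of 7212 and 10231 bp among them, and no peak was listed at NCAM1, GZMB or ALB. Outside the list, and chosen after their values were seen, the B-lineage genes IGLL1, BLK and CD79A lay at wide regions of 28785, 28303 and 21643 bp.

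**Figure D2:**
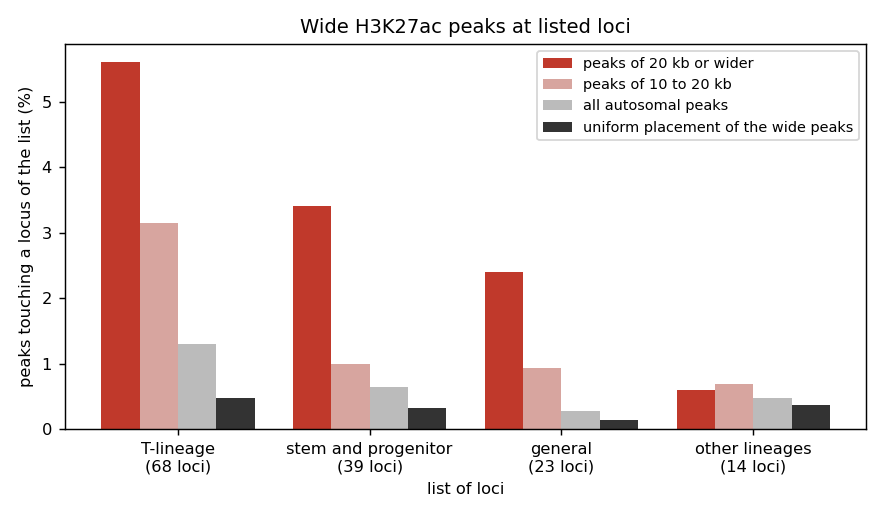
Share (%) of peaks that touch a locus of each of 4 lists, for peaks of 20 kb or wider, peaks of 10 to 20 kb, all autosomal peaks, and the wide peaks placed uniformly within chromosomes by calculation. The wide peaks have the tallest bar for T-lineage (5.6%), stem and progenitor (3.4%) and general loci (2.4%), and not for other lineages (0.6%). The lists were chosen with earlier results of these data known.

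Wide regions lay close to one another. Another wide region lay within 100 kb of 158 of them, or 31.6%, where uniform placement gives 25.4 regions, or 5.08%. A wide region was that near for 11.8% of all autosomal peaks and 21.6% of the peaks of 10000 to 20000 bp. The 158 include 24 regions with another within 2 kb. Within 250 kb the number was 204, or 40.8%, against 53.1 regions (10.6%) by uniform placement. The share was 19.3% for all autosomal peaks and 30.3% for the peaks of 10000 to 20000 bp. Within 1 Mb the number was 280, or 56%, against 166 regions (33.1%) by uniform placement. The share was 39.8% for all autosomal peaks and 48.6% for the peaks of 10000 to 20000 bp. The ratio to uniform placement was thus 6.22 at 100 kb and 1.69 at 1 Mb. The median distance to the nearest other wide region was 583 kb, and uniform placement gives 1791 kb. Peaks of all widths are themselves unevenly spread, so both references are given.

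**Figure D3:**
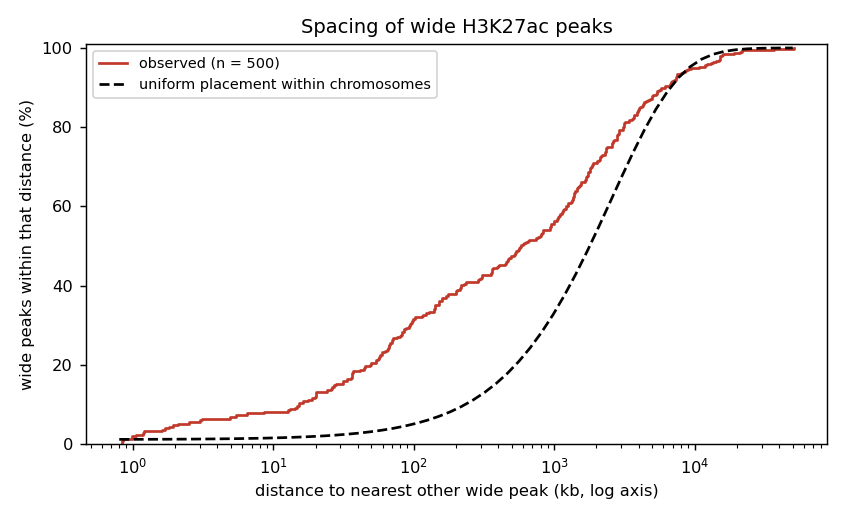
Share (%) of the 500 wide peaks with another wide peak within a given distance (kb, log axis), as observed (red steps) and for uniform placement within chromosomes (dashed line). At 100 kb the observed share is 31.6% and the uniform one 5.08%.

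The narrowest gaps were near the closest that any peaks came to each other, 817 bp. The shortest, 833 bp, separated a region of 23401 bp from one of 37917 bp at NBEAL2, a granule trafficking gene, in 3p21.31. A gap of 835 bp lay between the regions at CLEC2B, 852 bp between a pair at the histone genes, 979 bp between the pair at BCL2 and 989 bp between a pair in 5p12. Gaps of at most 2000 bp separated 12 pairs, those at PTPRC (1687 bp) and the T-cell receptor beta locus (1917 bp) among them. The members of such a pair are counted as separate regions here, as the authors' list gives them. The most isolated region lay at UBAC2 on chromosome 13, 50.8 Mb from the next, followed by one at TENT5A in 6q14.1 at 37.0 Mb.

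Joined across gaps of up to 250 kb, the regions formed 88 runs of 2 or more, which held 204 regions, and 296 stood alone. Of the runs, 67 had 2 regions, 17 had 3, 2 had 4, 1 had 5 and 1 had 6. The run of 6 was chr21:43295367-43941264, a span of 646 kb that reached from beyond UMODL1 over the cholesterol transporter gene ABCG1 to UBASH3A. Its widths were 29606, 22142, 25774, 28525, 37400 and 25633 bp, and its folds were within 8.82 to 11.2. The run of 5, chr12:9876739-10056644, ran from CD69 to CLEC2B, and wide regions filled 78.9% of its 180 kb. The 3 regions at CD69 had folds of 7.52, 9.84 and 8.04, and the 2 at CLEC2B 18.8 and 12.9. The widest region of this run, 42512 bp, had a fold of 8.04 and was not the one of highest fold. The run of 4 in 6p23, chr6:14207492-14466407, lay at no listed gene, with widths of 41349, 34540, 35158 and 46462 bp. The other run of 4 was that of UBASH3B. Of the runs of 3, the histone genes held the most sequence, 118554 bp. Another lay around MYB, with folds of 19.7 at MYB, 8.36 at AHI1 and 8.21 in the remaining region. Others took in CDK6, IKZF2, and ETS1 with FLI1.

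**Figure D4:**
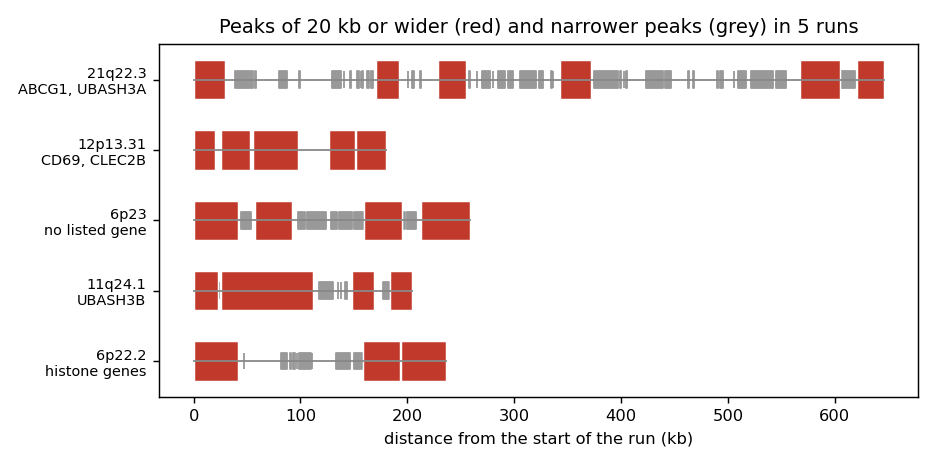
Peaks of 20 kb or wider (red) and narrower peaks (grey) by distance (kb) from the start of the run, for the 4 runs of 4 or more wide peaks and the run of 3 at the histone genes. Gaps of about 1 kb between red bars appear as thin white lines. In 12p13.31 wide peaks fill 78.9% of the run and in 21q22.3 26.2%.

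Wide regions were unevenly shared among chromosomes. Chromosome 22 held 27, where its length gives 8.90 and its share of all peaks 11.8. Chromosome 17, with HOXB, MIR142, CCR7 and CD7, held 34 (14.1 by length and 23.4 by peaks). Chromosome 21, with RUNX1, ERG and the run of 6, held 15 (8.35 and 6.18). Chromosome 19 held 16, above the 10.3 of its length and below the 17.6 of its peaks. Few lay on chromosome 13, with 5 (19.99 and 14.4), and on chromosome 4, with 14 (33.2 and 23.4). By the Giemsa stain of the band, a stain that separates gene-rich pale from gene-poor dark bands, 302 regions, or 60.4%, lay in unstained bands. These bands held 57.5% of all autosomal peaks and 42.4% of autosomal sequence. The darkest bands held 5.2% of the regions, 8.17% of peaks and 16.0% of sequence. Most of the lean to pale bands was thus that of all peaks.

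**Figure D5:**
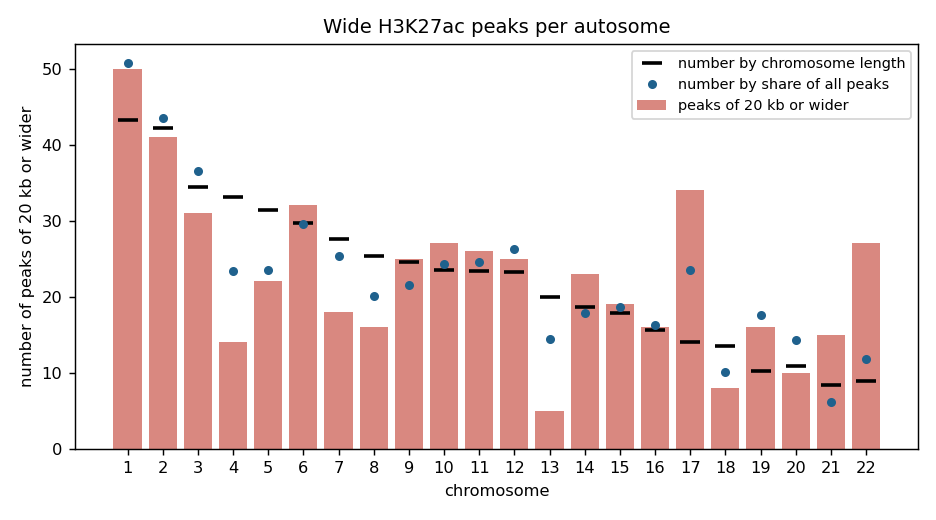
Number of peaks of 20 kb or wider on each autosome (bars), with the number by chromosome length (black dashes) and by the chromosome's share of all peaks (blue points). The bars of chromosomes 17, 21 and 22 stand above both marks, and those of 4 and 13 below both.

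Because fold is a ratio to local input, the regions were also read by chromosome arm. Their median fold was 8.31 on 6q (7 regions) and 9.15 on 5q (18 regions), beside 3.01 and 3.08 for all peaks of those arms. The highest arm median over at least 10 regions was 11.7, on 19p, where all peaks had a median of 5.36. The part of copy number or local input in these values was not tested.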

How the data were processed

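H3K27ac ChIP and input DNA of LOUCY were sequenced, 1 library each. Bowtie2, MACS2 and hg19 are named per the submitters' processing notes. The authors called broad peaks with MACS2 2.1.0.20140616, keeping 1 tag per position, and the file headers name a q cutoff of 0.05. That cutoff does not bound every listed peak. The lowest deposited -log10 q-value was 1.01 among all autosomal peaks, weaker than 0.05, and 11.5 among the wide regions. Fold enrichment is a deposited ratio, and each peak also has a deposited -log10 p-value and a deposited -log10 q-value. The deposited pileup was not used.

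From these, peaks were selected by width and counted. Uniform placement, in which intervals may overlap, was calculated in closed form from hg19 chromosome lengths (cytoband table of circlize 0.4.16), and the formulas were tested on simulated data. No hg19 annotation was used: spans of 314 loci were written from general knowledge, rounded outward to 10 kb. Of 302 matched by symbol to RefSeq (GRCh38.p14), 302 had the same chromosome and 290 a length within 25 kb. Gene assignments are therefore approximate. Members and lists were chosen with earlier results of these data known. Regions named were the 20 widest, 10 of highest and 5 of lowest fold, 5 narrowest, 5 longest runs, 5 shortest gaps and those at the 4 lists (up to 12 a list by width); other names were chosen after their values were seen. Alternatives changed the width minimum, windows, joining gaps and fold minimum. Some regions counted at listed loci are not reported singly here.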

Additional observations from a re-analysis of the deposited data

How the results depend on the processing

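No paired analysis was possible because each group had a single library, and no replicate could be left out. The number of regions was 932 at a width minimum of 15000 bp, 148 at 30000 bp and 882 when peaks within 2000 bp were joined. Those 3 moved it, while a -log10 q of at least 10 left 500 and chromosome X added 16. At 15000 and 30000 bp, the share of covered sequence was 14.96% and 4.04%, the median width 20619 and 36192.5 bp, the median fold 8.64 and 9.13, and the share with another region within 250 kb 52.1% and 18.2%. That share was 31.6% for 100 kb and 56% for 1 Mb. With centromeric, variable and stalk bands left out of the chromosome lengths, uniform placement gives 29.1 regions within 100 kb and 60.3 within 250 kb. A fold of at least 8 was found in 328 regions and of at least 12 in 78. At 30000 bp, 11 regions were left at T-lineage loci, 6 at stem and progenitor loci, 6 at general loci and 0 at loci of other lineages. At 15000 bp, general loci held 19 and other lineages 6. The total number of regions changed with the width minimum too, to 932 and 148. The ratio to uniform placement at T-lineage loci was 8.19 with 100 kb either side of the span and 11.3 with the span only. It was 9.69 at 15000 bp and 14.3 at 30000 bp. In the same order, it was 7.06, 11.5, 7.77 and 12.2 at stem and progenitor loci. General loci had 10.5, 23.9, 16.5 and 24.9, and loci of other lineages 1.70, 1.72, 1.96 and 0. Width minima for 6 results were added after seeing the data. With 1 library, the spread between cultures is unknown.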

Other observations

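Chromosome X, outside the rule, held 16 peaks of at least 20000 bp among its 1510, or 1.06%, against 0.986% on the autosomes. Per Mb there were 0.103 on X and 0.174 on the autosomes. Their widths were 20965 to 43422 bp and their folds 6.16 to 15.1, with a median fold of 10.2. The widest, chrX:65201192-65244613, also had the highest fold, 15.1. A close pair lay in Xp11.4, chrX:38452326-38481587 and chrX:38482433-38523521, with folds of 14.5 and 6.22.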
